A study of Mus musculus with 12 samples.

Results

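The comparison described here sets tetramer-positive CD8 T cells of the tumor against those of the tumor-draining lymph node (TDLN) in wild-type (WT) mice, over all genes. Its members are the 6 WT libraries of the 12 in the series, 3 from tumor and 3 from TDLN, chosen by the tissue and genotype in their labels. The labels number the replicates 1, 3 and 4 in each tissue, and values of 3 libraries are given below in that order. All mice carried MC38, a mouse colon carcinoma line, and cells were taken on day 10 after its injection. Cells were sorted as CD8+ and positive for an Rpl18 tetramer, which stains T cells whose receptor binds that peptide. The other 6 libraries are labelled as coming from mice without TrIP, an inhibitor of PI3K encoded by Pik3ip1, in CD8 cells (KO). They share the model's estimate of the spread, count toward the filter on low values, and are set beside WT near the end. The labels do not give the sex of the mice, the number of mice behind a library or how the tumors were broken up into cells. They also do not say that the libraries of a group came from separate mice, so p-values measure the spread between these libraries.

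As background, CD8 T cells are primed by antigen-presenting cells in the draining node, where they divide and then leave through the lymph. In the tumor, cells of the same specificity meet their antigen again. Signals through the T-cell receptor induce early genes of the NR4A, EGR and AP-1 families within a short time, followed by cytokines, chemokines and inhibitory receptors. Expression of the lipid receptor S1PR1 allows exit from nodes into the circulation, and the factor TCF-1 marks T cells that keep the ability to self-renew.

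The sorted cells carried the transcripts of CD8 T cells in each tissue. Cd8b1, which encodes the CD8 beta chain, had 18264, 23733 and 16232 normalized counts in tumor, against 24311, 32815 and 21917 in TDLN, and Cd3e, a chain of the receptor complex, had 4680, 8424 and 4718 in tumor, against 3870, 11862 and 3853 in TDLN. The 16 listed CD8 T-cell markers made up 0.770% to 0.987% of all values in tumor libraries and 0.575% to 1.01% in TDLN libraries. Cd4, the marker of helper T cells, had 12.4, 5.02 and 7.41 normalized counts in tumor and 15.2, 23.6 and 0.876 in TDLN, too low to be tested. The depth, estimated from the value of a single read, was 24059000 to 36946000 reads in genes per WT library. Libraries of TDLN correlated with each other on the log2 scale at Pearson r = 0.962 to 0.981 across genes, and those of tumor at 0.907 to 0.926, so the tumor libraries were the more varied. The median SD of a gene was 0.419 on the log2 scale in tumor and 0.261 in TDLN. On the second principal component, which held 8.2% of the variance of the 12 libraries, WT tumor 3 lay at -77.4 and the other 5 WT libraries between -19.5 and 12.6.

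In each tissue 1 library, replicate 3, differed from the others in transcripts that depend on sex. Xist, the RNA of the inactive X chromosome, had 0, 3040 and 0 normalized counts in tumor, against 0, 3552 and 0 in TDLN. Ddx3y, of the Y chromosome, had 5082, 909 and 4939 in tumor and 2165, 0 and 283 in TDLN. Tumor 3 thus held both transcripts, TDLN 3 held Xist with Ddx3y at 0, and the other libraries held Ddx3y with Xist at or near 0. The labels give no account of this. Without both of these libraries 4014 genes passed the threshold, and the counts of interferon-stimulated and class I genes without them are given beside those lists.

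Transcripts of cells other than T cells were present, with more of the macrophage and matrix markers in the tumor libraries. A summed marker list does not measure the share of RNA from a cell type. The 16 CD8 T-cell markers themselves took up at most 1.01% of values in WT libraries. Markers of macrophages and monocytes, 23 in number, took up 0.0849% to 0.174% of values in tumor and 0.0181% to 0.0297% in TDLN, and 20 of them rose. Lyz2, a lysozyme of myeloid cells, had 14166, 15220 and 3132 normalized counts in tumor, against 0, 50.4 and 15.8 in TDLN. C1qc, a chain of the complement component C1q, had 1978, 2780 and 1066 in tumor and 0 in all TDLN libraries. Its tumor mean was at least 641-fold higher when the TDLN libraries are set to 3 reads each. The macrophage markers Cd14, Ms4a7, Trem2 and Sirpa, were also at 0 in all TDLN libraries. Of 16 fibroblast and matrix markers 13 rose, and their sum was 0.0701% to 0.245% of values in tumor and 0.0314% to 0.0342% in TDLN. Col3a1, a fibrillar collagen, had 5032, 2466 and 15193 in tumor and 0 in TDLN, with its tumor mean at least 2500-fold higher. Tumor 4 held most of the stromal signal. Col1a2 had 191, 12.9 and 9416 in tumor and the endothelial cadherin Cdh5 31.9, 1.43 and 603, with 0, 0 and 9.63 for Cdh5 in TDLN. Col1a2 was at 0 in TDLN, and its call was lost without TDLN 1, TDLN 3 or TDLN 4 (adjusted p = 0.09, 0.099 and 0.095).

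B-cell transcripts went the other way. Of 14 markers 8 fell and 1 rose, and the sum was 0.00551% to 0.0130% of values in tumor against 0.0239% to 0.0322% in TDLN. Ighd, the IgD heavy chain, had 5.15, 24.4 and 44.5 normalized counts in tumor, against 736, 269 and 512 in TDLN. Ms4a1, which encodes CD20, had 11.3, 0 and 0 in tumor and 157, 136 and 134 in TDLN, while H2-Ob was at 0 in all tumor libraries. The marker that rose was Ly86, which myeloid cells also express. Markers of epithelial cells, the lineage of the carcinoma, rose in 3 of 4 tested, while the rest of the list, Krt8, Krt18 and Cdh1 among them, lay below the filter on low values. They summed to 0.00702% to 0.00763% of values in tumor and 0.000270% to 0.000643% in TDLN, without overlap, with Sox9 and Areg the largest members in tumor. The transcription factor Sox9 had 1270, 727 and 337 in tumor, against 2.02, 0 and 0 in TDLN, Lgals4, a galectin of gut epithelium, 146, 92.5 and 217 in tumor, against 29.3, 30.1 and 35.0 in TDLN, and Areg, a growth factor that T cells also make, rose as well (log2 difference 5.11, SE 0.47, adjusted p = 1.5e-05). Epcam did not pass (log2 difference -0.05, SE 0.44, adjusted p = 0.95), and Krt8 was at 0, 0 and 12.7 in tumor. Krt18 had 0, 0.717 and 0 in tumor, against 8.08, 26.0 and 27.1 in TDLN, and Cldn7 0, 0 and 2.12, against 3.03, 4.06 and 9.63. Cdh1 had 13.4, 1.43 and 10.6 in tumor, against 8.08, 29.3 and 0.876 in TDLN, and Krt7 5.15, 4.30 and 7.415, against 2.02, 1.625 and 6.13. In bulk libraries, fewer cells of a type and less RNA per cell cannot be told apart. The part these other cells play in the T-cell results below was not tested.

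**Figure D1:**
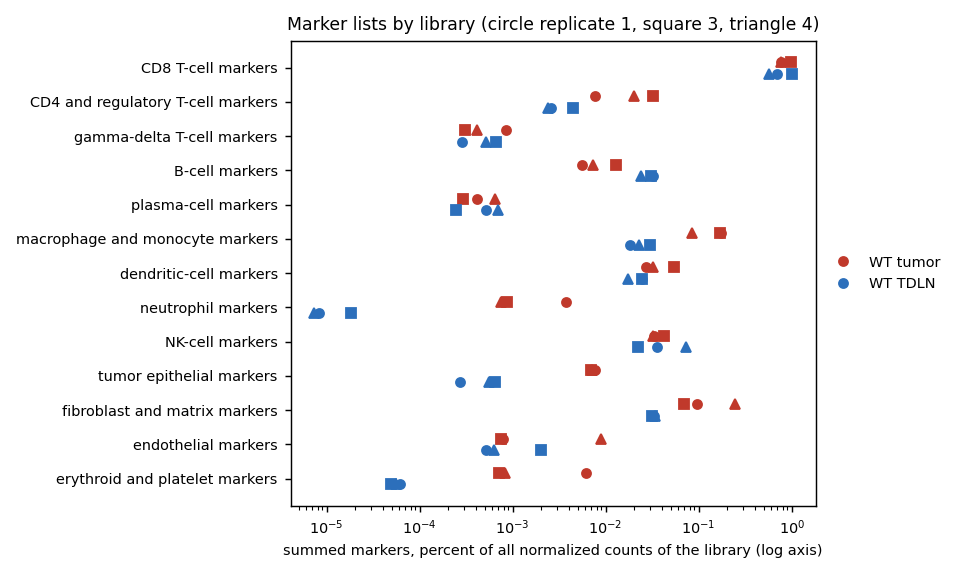
Summed normalized counts of each marker list as a percentage of all values of the library, on a log axis, with 1 point per WT library (tumor above TDLN, circle for replicate 1, square for 3, triangle for 4). CD8 T-cell markers hold 0.770% to 0.987% in tumor and 0.575% to 1.01% in TDLN, and the macrophage points of tumor (0.0849% to 0.174%) all lie above those of TDLN (0.0181% to 0.0297%).

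Of 16065 genes tested, 4312 (26.8%) differed between WT tumor and WT TDLN, by limma's moderated test with a Benjamini-Hochberg adjusted p under 0.05. Of these, 2560 (15.9% of genes tested) were higher and 1752 (10.9%) lower in tumor. The differences upward were the larger ones. At least 4-fold separated 889 of the higher genes and 214 of the lower ones, and at least 16-fold 138 and 2. Differences are on the scale of log2(normalized counts + 24.9), where 24.9 normalized counts equal 1 CPM, so the changes of genes near 0 are understated. Tumor libraries lay above all TDLN libraries in 22.8% of genes and below all of them in 17%. The balance of directions depended on the scaling, with 59.4% of calls higher as deposited. With a common column total 2119 were higher and 2522 lower (45.7% higher), and with quantile normalization 2018 and 2285 (46.9%). The median difference of all genes was -0.11 and -0.09 under these scalings, against 0.05 as deposited. Without TDLN 4, 1851 genes were higher and 1081 lower, and without tumor 4, 1827 and 1168.

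**Figure D2:**
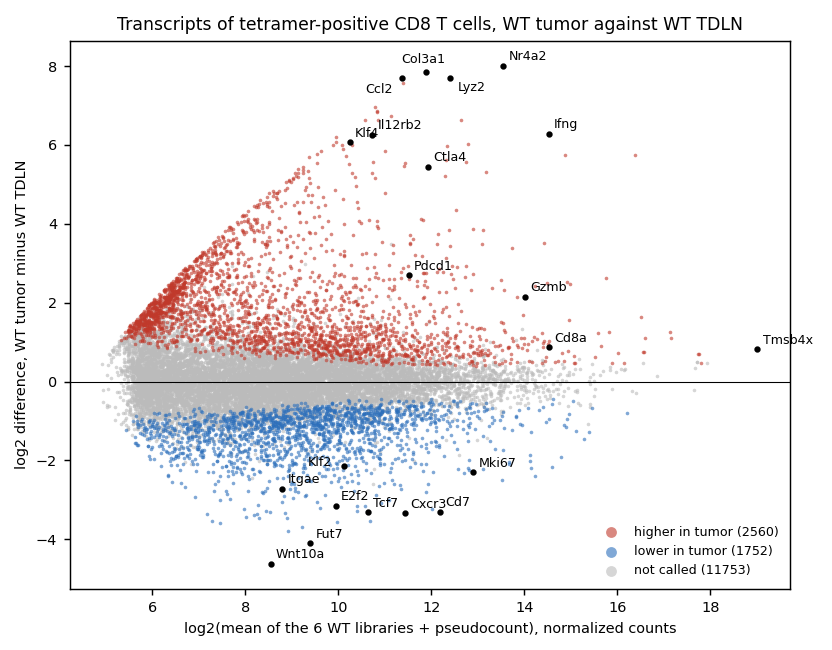
Each point is 1 of 16065 genes, with its mean level over the 6 WT libraries on the x axis (log2 of normalized counts plus 24.9) and the log2 difference of WT tumor minus WT TDLN on the y axis, red where it passed as higher (2560) and blue where it passed as lower (1752). Higher genes reach 8.01 (Nr4a2) and lower genes -4.62 (Wnt10a), and the edge at the upper left is set by genes at 0 in TDLN.

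The largest changes were ranked among genes that passed and whose libraries did not overlap. Predicted genes, accession names, pseudogenes, mitochondrial genes and most antigen-receptor segments were left out of this ranking. The 20 largest increases that remained fell into 3 kinds. Early receptor-induced factors were Nr4a2 (8.01 on the log2 scale), Fos (6.64), Fosb (6.64) and Nr4a3 (6.64). Macrophage and matrix genes were Col3a1, Lyz2, C1qb, C1qc, Fn1, Dcn, Fstl1 and the chemokines Ccl2, Ccl7 and Ccl9. The remainder held Ifng, Il12rb2, the signalling chain Fcer1g, the unconventional myosin Myo10 (5.99) and the small nuclear RNA 7SK (6.02). The largest decreases, of which 19 are named, were led by Wnt10a, a secreted WNT ligand (-4.62), and Fut7, the fucosyltransferase that makes selectin ligands (-4.10). They went on with receptors and adaptors of circulating T cells (S1pr1, Cxcr3, Gpr15, Cd7, Trat1, Rasgrp2), factors (Tcf7, Id3, Cbfa2t3, E2f2), genes of division (Hmmr, Depdc1b, Aunip), the E3 ligase Dtx1, the protease Mmp10 and the B-lineage genes Iglc2 and Ly6d. Iglc2, Ly6d and Mmp10 were at 0 in all tumor libraries. Against their TDLN means they were at least 94.6-fold, 83.2-fold and 75.9-fold lower at 3 reads per library.

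**Figure D3:**
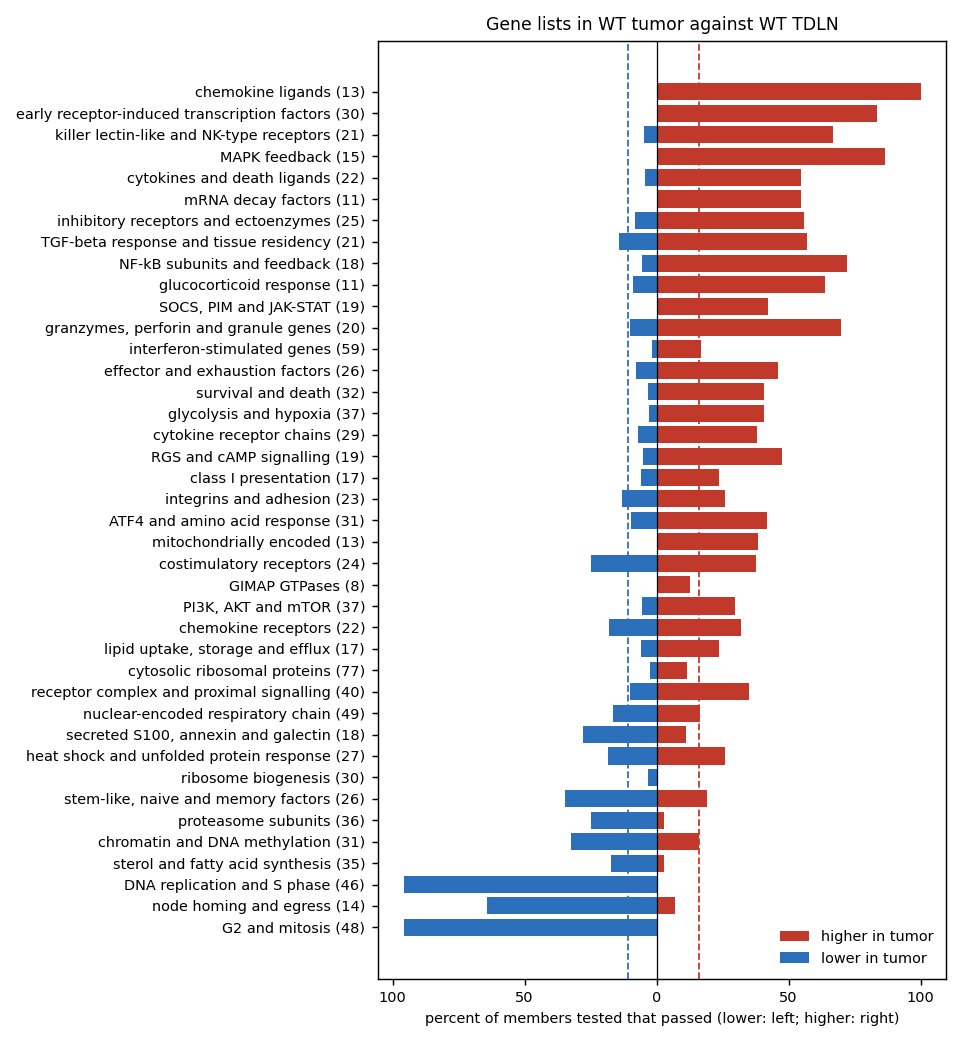
Share of the tested members of each gene list (number tested in parentheses) that passed as higher in tumor (red, to the right) or lower (blue, to the left). Dashed lines mark the shares over all genes tested, 15.9% higher and 10.9% lower, and the lists run from the highest median difference at the top to the lowest at the bottom.

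Early genes downstream of the T-cell receptor were higher in tumor in nearly every member. Of 30 transcription factors of this kind 25 rose and 0 fell, with a median log2 difference of 3.07 against 0.05 over all genes. Nr4a2, an orphan nuclear receptor, had 20484, 19139 and 32027 normalized counts in tumor, against 55.6, 96.7 and 49.9 in TDLN (log2 difference 8.01, SE 0.35, adjusted p = 4.6e-08). Its family member Nr4a3 had 9069, 13007 and 15855 in tumor, against 86.9, 82.1 and 134 in TDLN. For both genes every tumor library lay far above every TDLN library. The AP-1 subunit Fosb had 2534, 2514 and 3874 in tumor and 16.2, 0 and 0 in TDLN, and Fos 2334, 3232 and 5417 in tumor, against 11.1, 0 and 21.9 in TDLN. Fosl2 (5.96) and the stress-induced factor Atf3 (5.37) rose as well. Not all early factors followed. Nfatc1, a calcium-regulated factor, was at 2816, 3514 and 3289 in tumor, against 1914, 2578 and 2134 in TDLN (adjusted p = 0.066), and Batf, an AP-1 partner of effector cells, at 1155, 2538 and 1143 in tumor, against 2335, 3136 and 2230 in TDLN (adjusted p = 0.069).

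Negative regulators of the same signals were higher too. Of 15 genes that feed back on MAP kinase signalling 13 rose and 0 fell, with a median of 2.46. Dusp1, a phosphatase of MAP kinases, had 2596, 4313 and 4968 normalized counts in tumor, against 90.9, 114 and 147 in TDLN (log2 difference 4.78, SE 0.26, adjusted p = 1.9e-07), and Dusp5, which acts on ERK in the nucleus, had 3088, 2882 and 3463 in tumor, against 236, 287 and 442 in TDLN. Spry1, a Sprouty inhibitor, had 108, 559 and 326 in tumor, against 0, 3.25 and 14.9 in TDLN. Of 11 factors that promote decay of mRNA 6 rose. Zfp36, which binds AU-rich elements of cytokine mRNAs, had 1059, 2178 and 1838 in tumor, against 244, 445 and 235 in TDLN, and Zc3h12a, which encodes the endonuclease Regnase-1, had 209, 254 and 272 in tumor, against 18.2, 38.2 and 25.4 in TDLN. Btg1, an antiproliferative gene, was among the most abundant, with 81523, 89410 and 111040 in tumor, against 19659, 19660 and 8710 in TDLN. Of 19 genes of G-protein and cyclic AMP signalling 9 rose and 1 fell. Rgs2 had 10134, 9849 and 9796 in tumor, against 186, 190.2 and 160.2 in TDLN, Rgs16 3040, 3761 and 5212 in tumor, against 35.0, 107 and 15.8 in TDLN, and the cyclic AMP response modulator Crem 20501, 19508 and 14339 in tumor, against 324, 599.8 and 394 in TDLN. These 3 genes did not overlap between tissues, and their log2 differences were 5.61, 5.84 and 5.32. Many early genes are also induced when tissue is broken up into cells, and 27 heat shock and unfolded protein genes were followed beside them. Of these 7 rose and 5 fell (25.9% and 18.5%, against 15.9% and 10.9% of all genes), with 2 lower without tumor 1, tumor 4 or TDLN 4. Hspa1a and Hspa1b, near-identical copies whose reads can be shared, were at 3.57 and 3.61. The part that tissue handling plays was not tested.

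**Figure D4:**
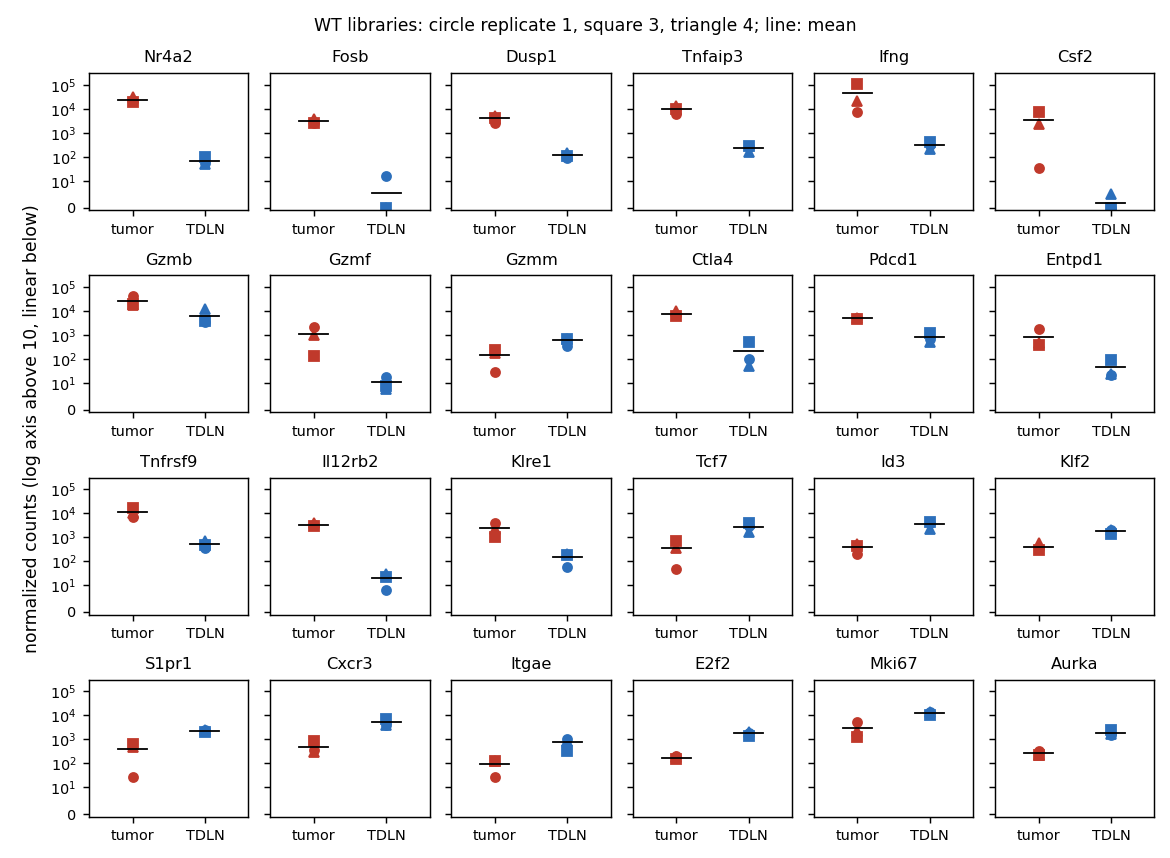
Normalized counts of 24 genes in the 3 WT tumor libraries (red, left) and the 3 WT TDLN libraries (blue, right), on an axis that is logarithmic above 10 and linear below, with the mean as a line. The top row holds early, feedback and cytokine genes with all tumor points above all TDLN points (Nr4a2 at 19139 to 32027 in tumor and 49.9 to 96.7 in TDLN), and the Tcf7, Id3, Klf2, S1pr1, Cxcr3 and division panels show the opposite order.

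Subunits and inhibitors of NF-kB rose together. Of 18 members 13 rose and 1 fell, with a median of 1.38. Tnfaip3, which encodes the ubiquitin-editing inhibitor A20, had 6332, 9372 and 13551 normalized counts in tumor, against 259, 276 and 165 in TDLN (log2 difference 5.20, SE 0.30, adjusted p = 3.4e-07). Nfkbia, the inhibitor IkB alpha, had 4407, 15294 and 8865 in tumor, against 1239, 1996 and 788 in TDLN, and Nfkbiz, an atypical IkB protein, 2067, 4674 and 6039 in tumor, against 341, 410.4 and 255 in TDLN. Rel, the c-Rel subunit of lymphocytes, had 2110, 7374 and 10100 in tumor, against 685, 1127 and 618 in TDLN. Rela, the p65 subunit, did not pass (log2 difference 0.54, SE 0.26, adjusted p = 0.15). Tnfaip8l2, a brake on lymphocyte responses, was the member that passed as lower (log2 difference -1.09, SE 0.31, adjusted p = 0.022), a call lost without TDLN 1 or TDLN 3 (adjusted p = 0.056 and 0.072).

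Promoters of these genes were examined for the letters that NF-kB proteins bind. RefSeq windows on GRCm38.p6, from 250 bases before to 50 after the start, were at hand for 15 of the 18 members. The kappa-B motif, searched on both strands, occurred in 8 of 15 windows (53.3%), against 8.18% of all 27025 windows of the table and 9.70% of the 9509 windows of genes tested. The 2 members of largest change whose 250 bases before the start hold the motif are shown by the 250 bases before their start, read 5′ to 3′, with the motif in capitals. They are Tnfaip3 (chr10:19015411-19015660, minus strand) and Rel (chr11:23770970-23771219, minus strand).
Tnfaip3: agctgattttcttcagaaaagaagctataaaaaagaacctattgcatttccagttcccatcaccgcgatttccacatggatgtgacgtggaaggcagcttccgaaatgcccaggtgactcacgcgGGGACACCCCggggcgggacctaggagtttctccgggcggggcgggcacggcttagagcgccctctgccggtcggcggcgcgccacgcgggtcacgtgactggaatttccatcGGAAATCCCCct
Rel: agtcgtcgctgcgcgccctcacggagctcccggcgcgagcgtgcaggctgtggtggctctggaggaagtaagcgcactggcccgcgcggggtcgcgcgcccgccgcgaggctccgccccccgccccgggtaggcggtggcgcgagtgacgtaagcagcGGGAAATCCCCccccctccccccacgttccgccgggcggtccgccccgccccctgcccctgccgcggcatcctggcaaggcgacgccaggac
Tnfaip3 holds the motif 125 and 12 bases before the start, and Rel holds 2 matches 92 and 91 bases before it, which overlap and form 1 run of capitals. A match of letters is a description and was not tested as a binding site.

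Chemokine and cytokine genes held some of the largest differences. All 13 chemokine ligands tested rose, with a median of 5.51. Ccl3 and Ccl4, which recruit leukocytes, had 11419, 112580 and 52704 normalized counts in tumor, against 886, 917 and 494 in TDLN for Ccl3 and 27980, 324140 and 153270 in tumor, against 2181, 2765 and 1454 in TDLN for Ccl4. These ligands were thus already measurable in TDLN and rose by 5.74 and 5.74 on the log2 scale. Ccl1 had 737, 25443 and 14274 in tumor, against 64.7, 59.3 and 312 in TDLN, with tumor 1 far below the other tumor libraries. Ccl2 and Ccl9, which macrophages and stromal cells make, were at 0 in all TDLN libraries and had 6529, 4888 and 4259 and 1134, 3412 and 976 in tumor. Their tumor means were at least 1720-fold and 607-fold higher. Beside them stand the macrophage markers, 0.0849% to 0.174% of values in tumor and 0.0181% to 0.0297% in TDLN.

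Of 22 cytokines and death ligands 12 rose and 1 fell, with a median of 1.87. Ifng, interferon gamma, had 7286, 111940 and 20837 normalized counts in tumor, against 302, 425 and 221 in TDLN (log2 difference 6.28, SE 0.70, adjusted p = 6.7e-05). Tumor 3 was highest and tumor 1 lowest, both above all TDLN libraries. Csf2, which encodes GM-CSF, had 36.1, 7538 and 2405 in tumor, against 0, 0 and 5.25 in TDLN, a wider range with the same order. Its call was lost without both Xist-bearing libraries (adjusted p = 0.059), as was that of Ccl1 (adjusted p = 0.058). Tnfsf11, RANK ligand, had 771, 4990 and 4726 in tumor, against 173, 243 and 86.7 in TDLN, and the growth factor Areg 558, 1006 and 1218 in tumor, against 0, 0 and 4.38 in TDLN. Spp1, osteopontin, had 5524, 953 and 1166 in tumor, against 27.3, 31.7 and 20.1 in TDLN and was highest in tumor 1. It is also on the macrophage list. The member that fell was Il16 (log2 difference -1.61, SE 0.33, adjusted p = 0.0038), and Ltb, lymphotoxin beta, was at 1412, 5928 and 969 in tumor, against 1832, 8736 and 1140 in TDLN (adjusted p = 0.74).

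Granule genes rose in most members, with exceptions among the granzymes. Of 20 genes 14 rose and 2 fell, with a median of 1.00. Prf1, perforin, had 3913, 2118 and 1571 normalized counts in tumor, against 243, 694 and 423 in TDLN (log2 difference 2.43, SE 0.47, adjusted p = 0.0026), and Serpinb9, the inhibitor that shields cells from granzyme B, had 17081, 16794 and 14322 in tumor, against 1018, 1733 and 1551 in TDLN. Gzmb, granzyme B, had 42116, 19410 and 17859 in tumor, against 3540, 3942 and 11660 in TDLN (log2 difference 2.16, SE 0.58, adjusted p = 0.016), with TDLN 4 close to the lower tumor values. Its call was lost without TDLN 1, TDLN 3 or tumor 1 (adjusted p = 0.061, 0.063 and 0.056). Gzmf and Gzmc, of a gene cluster whose members are near-identical and can share reads, had 2116, 130.2 and 1014 in tumor, against 17.2, 8.94 and 7.69 in TDLN for Gzmf and 1226, 149.8 and 1194 in tumor, against 39.4, 0.813 and 21.9 in TDLN for Gzmc, lowest in tumor 3 within tumor. Gzmm fell (28.9, 234 and 178 in tumor, against 363, 711 and 708 in TDLN, log2 difference -2.07, adjusted p = 0.0088), and Gzma was at 817, 5298 and 2331 in tumor, against 8318, 3558 and 16945 in TDLN (adjusted p = 0.063). The list's count of higher genes was 8 without TDLN 1 and 9 without TDLN 3, TDLN 4 or tumor 1.

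Receptors of the killer lectin-like and NK type rose in 14 of 21 members, with 1 lower and a median of 2.48. Klre1 had 3872, 969 and 2176 normalized counts in tumor, against 58.6, 172 and 207 in TDLN (log2 difference 3.71, SE 0.46, adjusted p = 1.4e-04), Klri2 899.6, 1830 and 1134 in tumor, against 46.5, 0 and 62.2 in TDLN and Klra4 1036, 289.7 and 299.8 in tumor, against 0, 0 and 16.6 in TDLN. The Klra genes have near-identical copies, so their values are uncertain. Fcer1g and Tyrobp, signalling chains that NK cells and myeloid cells also express, had 5108, 3846 and 4273 in tumor, against 20.2, 0 and 39.4 in TDLN for Fcer1g and 1591, 1433 and 1327 in tumor, against 17.2, 22.8 and 31.5 in TDLN for Tyrobp. Klrb1c, the NK1.1 antigen, was low in each tissue (2.06, 14.8 and 1.06 in tumor, against 60.6, 53.6 and 24.5 in TDLN), and Ncr1, an NK-cell receptor, was at 4.12, 0 and 0 in tumor and 0, 0 and 14.9 in TDLN.

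Receptors that restrain T cells were mostly higher. Of 25 inhibitory receptors and ectoenzymes 14 rose and 2 fell, with a median of 1.48. Ctla4 had 6600, 6221 and 9790 normalized counts in tumor, against 96.0, 509 and 50.8 in TDLN (log2 difference 5.45, SE 0.55, adjusted p = 3.4e-05). Pdcd1, which encodes PD-1, had 5235, 4726 and 5029 in tumor, against 696, 1225 and 490.3 in TDLN (log2 difference 2.70, SE 0.30, adjusted p = 6.8e-05), and its tumor libraries lay within a narrow range. Havcr2, which encodes TIM-3, had 3567, 2937 and 3059 in tumor, against 1196, 1286 and 1432 in TDLN. Tigit had 1889, 2350 and 1393 in tumor, against 129, 691 and 51.7 in TDLN, and Entpd1, the ectonucleotidase CD39, 1734, 401 and 445 in tumor, against 21.2, 91.8 and 24.5 in TDLN. For Ctla4, Tigit, Pdcd1 and Entpd1 the highest TDLN value belonged to TDLN 3. Cd200r1 fell (log2 difference -1.57, SE 0.38, adjusted p = 0.0093), and Cd160 was at 3626, 12826 and 7348 in tumor, against 5119, 4218 and 4077 in TDLN (adjusted p = 0.23). Costimulatory receptors were divided, with 9 of 24 higher and 6 lower. The members that rose most belong to the TNF receptor family: Tnfrsf9, which encodes 4-1BB, had 6717, 16785 and 10162 in tumor, against 369.8, 457 and 677 in TDLN, Tnfrsf4, which encodes OX40, 1683, 8126 and 4507 in tumor, against 435, 736 and 431 in TDLN, and Tnfrsf18, which encodes GITR, 4890, 15172 and 9322 in tumor, against 1430, 1987 and 1033 in TDLN. Icos rose as well (11382, 22432 and 18061 in tumor, against 5613, 7279 and 4950 in TDLN). Members that fell were Cd7 (241, 3456 and 499 in tumor, against 9450, 7733 and 6305 in TDLN), another member of the TNF receptor family, Tnfrsf26 (24.7, 107 and 64.6 in tumor, against 382, 518 and 358 in TDLN, adjusted p = 7.8e-04), and genes of the SLAM family, Slamf6 (73.2, 1278 and 1472 in tumor, against 2980, 5602 and 2038 in TDLN), Cd48 (22612, 20789 and 17694 in tumor, against 52632, 24973 and 46389 in TDLN) and Ly9 (-0.99). The call of Slamf6 was lost without TDLN 1 or TDLN 3 (adjusted p = 0.068 and 0.12) and that of Ly9 without TDLN 1, TDLN 3 or tumor 4 (adjusted p = 0.078, 0.1 and 0.11). The list's lower count was 3 without TDLN 1 or TDLN 3.

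Within the receptor complex and its proximal signalling, 14 of 40 genes rose and 4 fell (35.0% and 10.0%, against 15.9% and 10.9% of all genes), with a median of 0.16. This median was -0.01 with a common column total and -0.12 without TDLN 4. The members that rose most are brakes. Cblb, an E3 ligase that limits activation, had 4880, 3924 and 4739 normalized counts in tumor, against 707, 1000 and 355 in TDLN (log2 difference 2.78, SE 0.30, adjusted p = 5.9e-05), the adaptor Sla 6463, 11260 and 14106 in tumor, against 1220, 2092 and 889.5 in TDLN, and the phosphatase Ubash3b 2257, 4018 and 3827 in tumor, against 602, 666 and 371 in TDLN. The kinase Zap70 rose (1.26). Sit1 and Pag1, adaptors that hold inhibitory enzymes at the membrane, fell, with 438, 333 and 198 in tumor, against 1270, 1857 and 1185 in TDLN for Sit1 and 459.6, 369 and 377 in tumor, against 1420, 821 and 1282 in TDLN for Pag1, as did Csk, the kinase that Pag1 binds (-1.11). Lck was at 5452, 5466 and 5568 in tumor, against 7024, 12036 and 7841 in TDLN (log2 difference -0.66, SE 0.19, adjusted p = 0.023) and lost its call without TDLN 3, tumor 1 or tumor 4 (adjusted p = 0.066, 0.05 and 0.053). Cd8a rose by 0.86 with 24756, 37954 and 27564 in tumor, against 13964, 24404 and 12566 in TDLN, while Cd8b1 did not pass (log2 difference -0.44, SE 0.19, adjusted p = 0.1). The Cd8a call was lost without TDLN 1, TDLN 4 or tumor 3 (adjusted p = 0.064, 0.077 and 0.05).

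Of 37 genes of PI3K, AKT and mTOR 11 rose and 2 fell, with a median of 0.41. This median was 0.19 with quantile normalization, 0.24 without tumor 4 and 0.26 without TDLN 4. Pik3ip1, which encodes TrIP and is intact in these mice, fell in tumor. It had 179, 119 and 138 normalized counts in tumor, against 607, 1095 and 834 in TDLN (log2 difference -2.33, SE 0.35, adjusted p = 5.3e-04), a 5.03-fold difference with no overlap, and kept its call without each library in turn (adjusted p 8.2e-04 to 0.0035). Trat1, an adaptor of the receptor complex that can bind PI3K, had 0, 111 and 15.9 in tumor, against 513, 1264 and 166 in TDLN (log2 difference -3.30, SE 0.88, adjusted p = 0.016) and lost its call without TDLN 3, tumor 1 or tumor 4 (adjusted p = 0.072, 0.054 and 0.052). Members that rose were the AKT phosphatase Phlpp1 (662, 625 and 1462 in tumor, against 151, 134 and 91.9 in TDLN) and the adaptor Pik3ap1 (1165, 617 and 1545 in tumor, against 189.9, 340.5 and 197 in TDLN). Without TDLN 3 or tumor 4 the counts were 7 higher and 1 lower, without TDLN 4 7 higher and 2 lower, and with a common column total 8 higher and 4 lower.

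Factors of naive, memory and stem-like cells moved in each direction, with 5 of 26 higher and 9 lower (19.2% and 34.6%, against 15.9% and 10.9% of all genes). Tcf7, which encodes TCF-1, had 46.4, 699.8 and 343 normalized counts in tumor, against 2856, 3741 and 1681 in TDLN (log2 difference -3.31, SE 0.64, adjusted p = 0.0028), and tumor 1 had the lowest value. Id3, an inhibitor of E proteins, had 205, 447 and 529 in tumor, against 3859, 4301 and 2191 in TDLN (log2 difference -3.09, SE 0.49, adjusted p = 7.5e-04). In the other direction Klf4 had 1309, 1749 and 4058 in tumor, against 11.1, 0 and 10.5 in TDLN, Satb1, a chromatin organizer, 4264, 6356 and 7075 in tumor, against 1747, 1132 and 1121 in TDLN, Bcl6, a repressor linked to memory, 292, 353 and 606 in tumor, against 54.6, 102 and 25.4 in TDLN, and Bach2, a repressor of effector genes, 159, 1454 and 3178 in tumor, against 94.97, 64.2 and 58.7 in TDLN. Bach2 was highest in tumor 4 and lost its call without both Xist-bearing libraries (adjusted p = 0.07). Without TDLN 1 the list's counts were 6 higher and 5 lower. Of 26 effector and exhaustion factors 12 rose and 2 fell, with a median of 0.76 and 7 higher and 2 lower without tumor 4. Zeb2, a factor of terminal effector cells, had 1569, 3026 and 3086 in tumor, against 29.3, 109.7 and 43.8 in TDLN (log2 difference 4.96, SE 0.34, adjusted p = 1.3e-06), and Rbpj, the DNA-binding partner of Notch, 5421, 6418 and 7483 in tumor, against 837, 732 and 521 in TDLN. Hif1a, of the hypoxia response, had 12829, 19091 and 28264 in tumor, against 3282, 2523 and 3862 in TDLN, and Stat3 4635, 6490 and 8119 in tumor, against 853, 1800 and 1011 in TDLN. Tox, an exhaustion factor, had 2884, 1000 and 1632 in tumor, against 714, 1047 and 260.0 in TDLN (log2 difference 1.48, SE 0.50, adjusted p = 0.044), with TDLN 3 above the lowest tumor library. The call of Tox was lost without TDLN 1, TDLN 4, tumor 1 or tumor 4 (adjusted p = 0.066, 0.17, 0.15 and 0.095). Runx3 (log2 difference -1.17, SE 0.24, adjusted p = 0.0043) and Nfatc2 (-1.13) fell.

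Genes for circulation through lymph nodes were lower in tumor. Of 14 members 9 fell and 1 rose, with a median of -1.68. S1pr1, the egress receptor, had 26.8, 665 and 463 normalized counts in tumor, against 2456, 2062 and 2359 in TDLN (log2 difference -3.16, SE 0.73, adjusted p = 0.0074). Klf2, the factor that drives its expression, had 338, 295 and 547 in tumor, against 2025, 1317 and 2021 in TDLN (log2 difference -2.14, SE 0.30, adjusted p = 3.3e-04). Rasgrp2, an activator of integrin signalling, had 159, 335 and 209 in tumor, against 2479, 2080 and 2726 in TDLN, and Itgb7, an integrin beta chain of gut homing, 268, 675 and 360.1 in tumor, against 2844, 3042 and 3512 in TDLN. Cd69, which removes S1PR1 from the surface, was the member that rose, with 7169, 24829 and 17489 in tumor, against 918, 1887 and 573 in TDLN. Ccr7, the node-homing chemokine receptor, did not follow S1pr1. It had 161, 6808 and 4129 in tumor, against 1359, 2732 and 940.3 in TDLN (adjusted p = 0.92), low in tumor 1 and above all TDLN values in tumor 3 and tumor 4. The mean level of the 14 genes, relative to the TDLN mean on the log2 scale, was -2.40, -0.81 and -1.02 in tumor and 0.06, 0.32 and -0.38 in TDLN.

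Chemokine receptors, integrins and residency genes were mixed. Of 22 chemokine and related receptors 7 rose and 4 fell (31.8% and 18.2%, against 15.9% and 10.9% of all genes). Cxcr3, the receptor for interferon-induced chemokines, had 371, 814 and 291 normalized counts in tumor, against 3741, 7211 and 3989 in TDLN (log2 difference -3.34, SE 0.37, adjusted p = 6.2e-05), while one of its ligands, Cxcl10, rose (2435, 2583 and 3972 in tumor, against 579, 1320 and 106 in TDLN). Cxcr6, a receptor of tumor-resident T cells, had 23939, 20221 and 19165 in tumor, against 10972, 8526 and 10153 in TDLN (log2 difference 1.09, SE 0.22, adjusted p = 0.0031), and Cx3cr1, of effector cells, 1051, 1023 and 1356 in tumor, against 254, 471 and 206 in TDLN. Gpr15 had 0, 53.5 and 3.35 in tumor, against 998, 60.0 and 1645 in TDLN. The list's lower count was 2 without TDLN 3 or tumor 1. Of 23 integrin and adhesion genes 6 rose and 3 fell. Itgav, the alpha V chain, had 5667, 3299 and 4406 in tumor, against 947, 441 and 766 in TDLN, and Cd44 6099, 7294 and 10642 in tumor, against 1952, 2780 and 1651 in TDLN, while Itgb1, the beta 1 chain, had 3692, 5323 and 5712 in tumor, against 19916, 15122 and 13402 in TDLN. Itgae, which encodes the residency integrin CD103, fell, with 26.8, 121 and 129 in tumor, against 1046, 320.2 and 876 in TDLN (log2 difference -2.72, SE 0.53, adjusted p = 0.003). It belongs to the list of TGF-beta response and tissue residency, of which 12 of 21 members rose and 3 fell. Among those that rose were Skil, a feedback inhibitor of TGF-beta signalling (13080, 10592 and 12670 in tumor, against 2004, 1545 and 1248 in TDLN), and Bhlhe40, a factor of resident T cells (5851, 8035 and 11182 in tumor, against 625, 750.0 and 415 in TDLN).

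Transcripts of dividing cells were lower in tumor almost without exception. Of 46 genes of DNA replication and S phase 44 fell and 0 rose, with a median of -1.40, and of 48 genes of G2 and mitosis 46 fell and 0 rose, with a median of -1.80. These counts stand beside 10.9% of all genes. Mki67, which encodes the proliferation antigen Ki-67, had 5249, 1228 and 2311 normalized counts in tumor, against 13672, 10174 and 12980 in TDLN (log2 difference -2.29, SE 0.40, adjusted p = 0.0014). E2f2, a factor of the G1 to S transition, had 196, 148 and 176 in tumor, against 1771, 1394 and 2092 in TDLN (log2 difference -3.15, SE 0.20, adjusted p = 8.3e-07). Rrm2, a subunit of ribonucleotide reductase, had 5196, 1370 and 3797 in tumor, against 14026, 11440 and 17539 in TDLN, and the mitotic kinase Aurka 332, 232 and 229 in tumor, against 1515, 2348 and 1607 in TDLN. Ccnb1, cyclin B1, had 1118, 105 and 632 in tumor, against 3752, 3573 and 3668 in TDLN, and Hmmr, a spindle protein, 926, 48.8 and 329 in tumor, against 2670, 2426 and 2638 in TDLN. For Mki67, Rrm2, Ccnb1 and Hmmr tumor 1 was the highest and tumor 3 the lowest of the tumor libraries, still without reaching TDLN. The mean level of the mitotic list relative to TDLN was -0.91, -2.85 and -1.81 in tumor, so the decrease was least in tumor 1. Members that did not pass were Cdt1, Gins4, Pttg1 (3362, 2049 and 1697 in tumor, against 2640, 1879 and 2580 in TDLN) and Anln. Without TDLN 1 or TDLN 4, 30 of the mitotic genes passed as lower.

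The windows of the 2 cycle lists hold the letters of known cell-cycle elements more often than other windows. The element called CHR (TTTGAA, both strands) occurred in 26 of the 40 mitotic windows at hand (65.0%), against 18.1% of all 27025 windows and 12.9% of those of genes tested. The CCAAT box (CCAAT, both strands) occurred in 28 of 40 (70.0%), against 37.9% and 39.9%. The E2F element (TTCCCGC, both strands) occurred in 16 of 37 windows of the replication list (43.2%), against 4.66% and 8.68%, and in 1 of 40 mitotic windows. Shown are the 2 members of each list with the largest change whose 250 bases before the start hold the element, printed the same way, with CHR and CCAAT in capitals in Ccnb2 (chr9:70421555-70421804, minus strand) and Cdc20 (chr4:118437344-118437593, minus strand), and E2F in capitals in Chaf1b (chr16:93883651-93883900, plus strand) and Uhrf1 (chr17:56303087-56303336, plus strand).
Ccnb2: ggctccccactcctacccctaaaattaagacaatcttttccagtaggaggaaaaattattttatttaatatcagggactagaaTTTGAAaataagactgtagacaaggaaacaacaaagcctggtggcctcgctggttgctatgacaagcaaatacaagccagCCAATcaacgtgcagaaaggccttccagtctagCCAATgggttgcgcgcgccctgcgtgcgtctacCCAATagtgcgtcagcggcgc
Cdc20: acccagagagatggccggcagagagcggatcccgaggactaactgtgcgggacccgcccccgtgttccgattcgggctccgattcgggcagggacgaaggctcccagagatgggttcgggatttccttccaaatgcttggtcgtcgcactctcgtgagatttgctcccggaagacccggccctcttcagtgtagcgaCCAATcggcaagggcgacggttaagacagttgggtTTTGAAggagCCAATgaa
Chaf1b: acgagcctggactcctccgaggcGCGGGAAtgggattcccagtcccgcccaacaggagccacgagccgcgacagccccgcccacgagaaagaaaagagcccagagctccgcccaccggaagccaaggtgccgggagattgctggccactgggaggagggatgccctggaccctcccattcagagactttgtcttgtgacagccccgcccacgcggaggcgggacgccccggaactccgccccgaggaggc
Uhrf1: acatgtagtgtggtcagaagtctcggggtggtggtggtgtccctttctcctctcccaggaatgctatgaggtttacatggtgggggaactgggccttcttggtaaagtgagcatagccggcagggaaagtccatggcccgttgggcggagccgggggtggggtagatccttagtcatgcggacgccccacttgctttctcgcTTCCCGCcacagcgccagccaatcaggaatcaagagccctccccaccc
Ccnb2, cyclin B2, holds CCAAT 87, 54 and 21 bases before the start and the CHR element 167 bases before it, and had 2384, 418 and 684 normalized counts in tumor, against 6616, 5816 and 6733 in TDLN (log2 difference -2.81, SE 0.46, adjusted p = 9.9e-04). Cdc20, the activator of the anaphase-promoting complex, holds the CHR element between CCAAT boxes that start 53 and 8 bases before the start. Chaf1b, a histone chaperone subunit, holds E2F 227 bases before the start and had 191, 171 and 122 in tumor, against 551, 1222 and 689.9 in TDLN, and Uhrf1, a factor of maintenance methylation, holds it 48 bases before the start. The searched windows also hold a CHR match 4 bases after the start in Ccnb2 and an E2F match 26 bases after it in Chaf1b, beyond the bases printed. The matches do not overlap each other.

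Receptors for cytokines rose in 11 of 29 members and fell in 2. Il12rb2, a chain of the interleukin 12 receptor, had 3183, 2772 and 4005 normalized counts in tumor, against 8.24, 21.0 and 28.1 in TDLN (log2 difference 6.26, SE 0.33, adjusted p = 1.9e-07). Il1rl1, which encodes the interleukin 33 receptor ST2, had 1868, 1169 and 1741 in tumor, against 42.4, 73.9 and 29.8 in TDLN, and Il1r2, a decoy receptor for interleukin 1, 764, 2268 and 1425 in tumor, against 66.7, 149.5 and 22.8 in TDLN. Il2rb and Il2rg, shared chains of the interleukin 2 and 15 receptors, did not pass (log2 differences 0.64 and -0.20). Of 19 genes of the JAK-STAT pathway 8 rose and 0 fell, among them the inhibitors Socs3 (233, 447 and 479.8 in tumor, against 18.2, 36.6 and 17.5 in TDLN) and Cish (780.1, 2989 and 2035 in tumor, against 145, 382 and 252 in TDLN), with 5 higher without TDLN 1 or TDLN 4 and 4 without tumor 4. Of 32 survival and death genes 13 rose and 1 fell. Bcl2l11, which encodes the death promoter BIM, had 2177, 2495 and 3131 in tumor, against 233, 503 and 127 in TDLN, and the survival gene Bcl2a1b, whose copies can share reads, 20273, 38404 and 38648 in tumor, against 6713, 5236 and 5376 in TDLN. Cdkn1a, an inhibitor of cyclin-dependent kinases, had 845, 1406 and 674 in tumor, against 80.7, 91.7 and 168 in TDLN. The member that fell was Birc5, survivin, which is also a mitotic gene (-2.49).

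Several genes of low oxygen rose, and a few of lipid handling. Of 37 genes of glycolysis and hypoxia 15 rose and 1 fell, with a median of 0.64. This median was 0.23 with quantile normalization, 0.32 without tumor 4 and 0.42 without tumor 1. Vegfa, an angiogenic factor induced in hypoxia, had 329, 399 and 263 in tumor and 0 in all TDLN libraries. Slc16a3, which exports lactate, had 308, 294 and 270.1 in tumor, against 27.3, 43.9 and 19.3 in TDLN (log2 difference 2.54, SE 0.30, adjusted p = 1.1e-04), and Ndrg1, a stress gene, 663, 410.1 and 592 in tumor, against 83.9, 68.3 and 94.6 in TDLN. The glycolytic enzymes Ldha (13028, 22256 and 11029 in tumor, against 14697, 19301 and 17550 in TDLN) and Aldoa (-0.03) are named as the members of highest value among those that did not pass. Eno1 was at -0.93 (adjusted p = 0.043), a call lost without TDLN 3, TDLN 4, tumor 1 or tumor 4 (adjusted p = 0.15, 0.11, 0.066 and 0.17). Of 17 genes of lipid handling 4 rose and 1 fell (23.5% and 5.88%, against 15.9% and 10.9% of all genes). Hilpda, a lipid-droplet protein induced in hypoxia, had 5794, 6142 and 4625 in tumor, against 402, 553 and 272 in TDLN (log2 difference 3.72, SE 0.26, adjusted p = 1.2e-06), and Dgat1, which makes triglycerides, 2414, 1073 and 2796 in tumor, against 77.8, 112 and 110.3 in TDLN. Apoe rose as well (5.57) and is also a macrophage gene. In sterol and fatty acid synthesis 6 of 35 fell and 1 rose (17.1% and 2.86%, against 10.9% and 15.9% of all genes). The lower count was 1 without TDLN 4, 3 without TDLN 3 or tumor 4 and 9 with a common column total. Insig1, which restrains sterol synthesis, had 961, 816 and 967 in tumor, against 341, 169.8 and 391 in TDLN (adjusted p = 0.0019).

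Stress responses were divided within their lists. Of 31 genes of the ATF4 response 13 rose and 3 fell, and 11 higher and 5 lower without tumor 1. Atf4 itself had 4383, 5241 and 5094 normalized counts in tumor, against 1207, 1547 and 1542 in TDLN (log2 difference 1.76, SE 0.18, adjusted p = 3.5e-05), the amino acid transporter Slc38a2 18182, 22850 and 19727 in tumor, against 3407, 4073 and 4592 in TDLN, and the phosphatase subunit Ppp1r15a 596, 3634 and 876 in tumor, against 48.5, 237 and 76.2 in TDLN. Phgdh and Psat1, enzymes of serine synthesis that ATF4 can induce, were lower (-1.70 and -1.11), and the call of Psat1 was lost without tumor 4 (adjusted p = 0.061). Among chaperones Dnajb9, of the endoplasmic reticulum, rose (1748, 3244 and 2181 in tumor, against 366, 422 and 562 in TDLN), while the luminal proteins Pdia4 (389.5, 483 and 389 in tumor, against 806, 1487 and 1184 in TDLN) and Sdf2l1 (-2.02) fell. Of 11 glucocorticoid-response genes 7 rose, such as Klf9 (266, 493 and 506 in tumor, against 32.3, 33.3 and 27.1 in TDLN) and Per1 (2.33), while Fkbp5, a classical target of the receptor, fell (629.6, 351 and 622 in tumor, against 1246, 851 and 2036 in TDLN, log2 difference -1.28, SE 0.31, adjusted p = 0.01).

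For genes of translation, the proteasome and respiration the counts moved with single libraries. Of 77 cytosolic ribosomal proteins 9 rose and 2 fell (11.7% and 2.60%, against 15.9% and 10.9% of all genes), with a median of 0.18. With a common column total they were 4 higher and 4 lower, with a median of 0.01. Leaving out libraries gave 2 higher and 0 lower without tumor 4, 3 higher and 0 lower without TDLN 3, 5 higher and 1 lower without tumor 1 and 15 higher and 3 lower without tumor 3. Of 36 proteasome subunits 9 fell and 1 rose (25.0% and 2.78%, against 10.9% and 15.9% of all genes). Psmc1, an ATPase of the base, had the largest difference of the list (1751, 1554 and 930.0 normalized counts in tumor, against 3008, 3601 and 3711 in TDLN, log2 difference -1.31, SE 0.25, adjusted p = 0.0024). The lower count ranged from 2 without TDLN 4 to 14 without tumor 3, with 3 or 4 without any other library, and was 14 with a common column total. Of 49 nuclear genes of the respiratory chain 8 rose and 8 fell (16.3% each, against 15.9% and 10.9% of all genes). These counts were 4 higher and 13 lower under a common column total and 1 higher and 7 lower without TDLN 3. They were 1 higher and 4 lower without tumor 4, 4 higher and 7 lower without tumor 1 and 5 higher and 4 lower without TDLN 4. Of 13 transcripts encoded by mitochondrial DNA 5 rose (38.5%, against 15.9% of all genes). The count was 0 without TDLN 3, TDLN 4, tumor 1 or tumor 4, 8 without tumor 3 and 9 without TDLN 1. Of 30 ribosome biogenesis genes 1 passed, Ncl, which encodes nucleolin (log2 difference -0.87, SE 0.21, adjusted p = 0.01), with 5 lower without tumor 3 or with a common column total and 3 lower without both Xist-bearing libraries.

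The count for interferon-stimulated genes moved with every library left out, and most with TDLN 3. Of 59 genes 10 rose and 1 fell, a share of higher genes near that of all genes. Their median was 0.91, and it was 1.37 without TDLN 3, 0.45 without TDLN 4 and 1.65 without both Xist-bearing libraries. Ifit3, an antiviral gene, had 1827, 1592 and 1834 normalized counts in tumor, against 442, 3852 and 115 in TDLN, and Rtp4 had 2233, 1266 and 2857 in tumor, against 341, 4642 and 218 in TDLN. TDLN 3 lay above all tumor libraries for each of these, and the other TDLN libraries below them. The mean level of the list relative to the TDLN mean was 1.11, 0.40 and 1.23 in tumor and -0.33, 1.19 and -0.85 in TDLN. Without TDLN 3 the counts were 37 higher and 0 lower, and without both Xist-bearing libraries 47 higher and 1 lower, while without tumor 4 they were 4 higher and 1 lower, without tumor 1 or TDLN 4 5 higher and 1 lower, without TDLN 1 6 higher and 1 lower and without tumor 3 19 higher and 1 lower. Irf1, a factor induced by interferon gamma, passed with 3689, 2677 and 4321 in tumor, against 691, 1512 and 753 in TDLN (log2 difference 1.89, SE 0.30, adjusted p = 8.1e-04). Of 17 genes of class I presentation 4 rose and 1 fell (23.5% and 5.88%, against 15.9% and 10.9% of all genes). These counts were 9 higher and 2 lower without TDLN 3 and 11 higher and 2 lower without both Xist-bearing libraries. They were 1 higher and 1 lower without TDLN 1, TDLN 4 or tumor 4. B2m, the light chain of class I molecules and an abundant transcript, had 217400, 166360 and 214300 in tumor, against 100500, 96180 and 81558 in TDLN (log2 difference 1.10, SE 0.16, adjusted p = 4.0e-04).

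Chromatin genes followed the division genes in part. Of 31 members 10 fell and 5 rose (32.3% and 16.1%, against 10.9% and 15.9% of all genes). Hmgb2, a chromatin protein of dividing cells, had 21182, 8299 and 8741 normalized counts in tumor, against 49826, 34870 and 47434 in TDLN (log2 difference -1.91, SE 0.30, adjusted p = 7.1e-04), and Hmgn2 11708, 5338 and 4009 in tumor, against 31808, 24645 and 30731 in TDLN. The histone demethylases Kdm6b (693, 2897 and 1832 in tumor, against 194, 289 and 186 in TDLN) and Kdm2b (2.89) rose. Beyond protein-coding genes, of which 1998 of 11317 rose and 1337 fell, several classes of short or structural RNA were one-sided. Small nuclear RNAs rose in 99 of 128 genes tested and fell in 0, ribosomal RNA genes rose in 40 of 46, mitochondrial tRNAs in 11 of 15, and 7SK copies in 8 of 8. These RNAs lack long polyA tails and have near-identical copies, so their levels in polyA libraries are uncertain. They made up small shares, with small nuclear RNAs at 0.0234%, 0.0496% and 0.128% of values in tumor and 0.0229%, 0.0168% and 0.00544% in TDLN. Long noncoding RNAs rose in 150 of 860 genes and fell in 56, a share of higher genes near the 15.9% of all genes. Processed pseudogenes, whose reads cannot be told apart from those of their parent genes, held 14.8% to 18.3% of values in tumor and at least 19.1% in every TDLN library. Of 2849 tested 115 rose and 316 fell, a share of lower genes near the 10.9% of all genes. Among protein-coding genes the median difference went with transcript length in GRCm38 annotation, from -0.09 in the shortest to 0.35 in the longest of 5 groups of like size (Spearman rho 0.178 over 11272 genes, a description since genes are not independent). The part of transcript length in the results above was not tested.

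The leading antigen-receptor segments differed between libraries. In tumor 1 the Trbv20 family made up 87.8% of all Trbv values, in tumor 3 Trbv31 made up 63.2%, and in tumor 4 the leading family, Trbv29, made up 21.4%. In TDLN the leading families were Trbv12 in TDLN 1 (63.4%) and TDLN 3 (39.7%) and Trbv31 in TDLN 4 (82.9%). The alpha chain likewise had Trav14 at 72.0% in tumor 1, Trav13 at 33.0% in tumor 3 and Trav16 at 34.1% in tumor 4, against Trav7 at 39.4% in TDLN 1, Trav7 also leading in TDLN 3, and Trav6 at 56.2% in TDLN 4. Segments were summed by family since copies within a family can share reads, and shares of transcripts are not counts of cells. Samples of the same number did not share their leading family. Tumor 1, with the most uniform segments, also had the lowest Tcf7, Ccr7, S1pr1 and Csf2 of the tumor libraries and the highest Mki67, Gzmb and Spp1. These genes were picked after their values were seen, and the relation of segments to these levels was not tested.

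**Figure D5:**
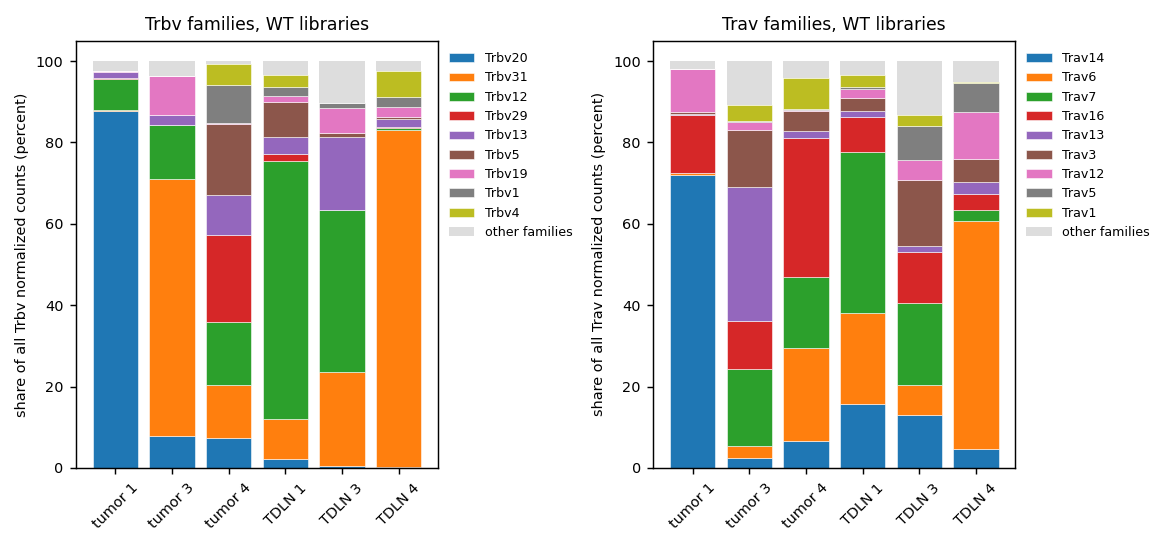
Share of all Trbv (left) and Trav (right) normalized counts taken by each variable-segment family, 1 bar per WT library with tumor left of TDLN, the 9 families with the highest share in any WT library in colour and the rest in grey. Tumor 1 is mostly Trbv20 (87.8%) and Trav14 (72.0%), and TDLN 4 mostly Trbv31 (82.9%) and Trav6 (56.2%).

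The 10 genes with the widest range among tumor libraries were mostly of 2 kinds. Matrix genes and Ubd were high in tumor 4, with Col1a1 at 144, 181 and 7682 normalized counts and Ubd, a ubiquitin-like gene induced by inflammatory cytokines, at 162, 73.9 and 7904. T-cell genes were low in tumor 1, with Dapl1, a gene of resting T cells, at 0, 1686 and 631 in tumor and 2879, 4510 and 449 in TDLN, and the histamine receptor Hrh4 at 18.5, 1434 and 1739 in tumor and 3099, 1229 and 2819 in TDLN. Among TDLN libraries the widest ranges beyond segments and sex-linked genes belonged to interferon genes, which were high in TDLN 3, and to Anxa1 (1658, 86.9 and 2188) and Ifitm1 (21899, 970.2 and 14129), which were low there.

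The same comparison was set beside that in KO mice, to ask whether the difference between tissues depended on the genotype. No gene passed the test of the interaction by limma (0 of 16065, 465 with an unadjusted p under 0.05, smallest adjusted p rounding to 1). Log2 differences in KO were 8.05 for Nr4a2, 2.69 for Pdcd1, -2.82 for Tcf7, -2.01 for S1pr1 and -1.76 for Mki67, against 8.01, 2.70, -3.31, -3.16 and -2.29 in WT. For Pik3ip1 they were -3.19 in KO and -2.33 in WT. Pik3ip1 had 173, 95.2 and 55.5 normalized counts in tumor, against 854, 1009 and 1573 in TDLN, in the libraries labelled KO. The KO TDLN values overlapped those of WT TDLN (607, 1095 and 834), so the gene-level value does not show the loss of the targeted gene. The labels do not say which part of it was deleted.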

How the data were processed

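RNA of sorted cells was sequenced from polyA libraries made with a stranded kit, per the labels' protocols. The deposited values are Partek normalized counts for 26962 genes, a signal that is not whole reads, per the file headers and the values: 87.0% to 89.6% of values under 50 reads came out whole within 0.01. Genome builds GRCm38 and GRCm39 are named in the submitters' processing notes without roles, and the aligner and the counting tool were not given in sources used here. No count model was used. The 16065 genes whose mean reached 1 CPM were tested on log2(normalized counts + 24.9), which is 1 CPM, with limma 3.58.1 in R 4.3.3, using 1 trended fit of all 12 libraries with 8 residual and 4.47 prior degrees of freedom. P-values were adjusted over all genes by Benjamini-Hochberg with a threshold of 0.05. The estimated depth of 24059000 to 36946000 reads per WT library leaves genes of a few reads imprecise. The floor of 3 reads covers counting error only, while each SE is limma's moderated estimate from the spread between libraries. Tables and figures used Python 3.11.15, pandas 2.3.3, numpy 2.4.6 and matplotlib 3.10.9. The procedure was tested on simulated data. 0 columns of per-sample values were left unused.

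The named genes were the 20 largest changes without overlap in each direction, leaving out predicted genes, accession names, pseudogenes, mitochondrial genes and most antigen-receptor segments. Added were up to 6 called members per list and direction with the 2 most abundant members not called, and markers of other cells. A set of familiar T-cell genes, the 10 widest ranges in each tissue and the smallest interaction p-values in each direction completed them. The members and lists were chosen with earlier results of these data known. Alternatives changed the filter, pseudocount, scaling, variance model, weights, libraries in the fit, replicate block and thresholds, and left out each WT library. Leaving out both libraries with Xist was chosen after seeing the data. A few genes that the rule names are not reported here.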

Additional observations from a re-analysis of the deposited data

Results flagged for a closer look

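The predicted gene Gm43300 had differences of opposite sign in KO and WT. Its log2 difference between tumor and TDLN was -1.29 in KO and 0.79 in WT, 2.08 apart, with every library of each genotype on its own side. Because the gene was picked for its small unadjusted interaction p, this separation comes from the values that chose it. In WT it had 103, 87.5 and 43.4 normalized counts in tumor and 36.4, 33.3 and 28.0 in TDLN. Neither its WT difference (adjusted p = 0.13, limma) nor its interaction passed the threshold after adjustment over all genes.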

How the results depend on the processing

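The number of genes called kept within 1.5 times of 4312 under every alternative tried other than the replicate block and an adjusted p of 0.01. With the threshold at 0.01, 2159 genes passed, 1408 higher and 751 lower. With the WT libraries alone in the fit 1060 genes were lower. The labels do not say that equal replicate numbers mark 1 mouse, so the numbers were not taken as pairs. To compare libraries beyond the tissue levels, the mean of each gene in its tissue was first subtracted from the log2 values. Across genes, Pearson r of these residuals between same-numbered tumor and TDLN libraries was 0.0114, 0.2 and -0.0409 for numbers 1, 3 and 4. Without the subtraction it was 0.877, 0.871 and 0.807. For unmatched numbers r of the residuals was -0.183 to 0.177, and the highest of all was that of the 2 libraries with Xist. With 3 libraries per tissue these correlations cannot decide whether the numbers mark pairs. With a replicate block 2798 genes passed, 1749 higher and 1049 lower. Leaving out 1 library at a time gave 2932 to 5042 genes called, 1827 to 2912 higher and 1081 to 2130 lower. The cause of these changes was not tested beyond the smaller number of libraries. The interaction gave 0 calls in every fit other than that with no filter on low values, which gave 1. Of 362 named genes that passed, 259 kept their call in each of the 19 alternative fits in which they were tested, and no named gene reversed. Calls lost ranged from 0 under robust estimation to 70 with the WT libraries alone. List counts of 3 or fewer often changed by 1 or 2 genes with single libraries. Depth limits genes near 0, whose differences are understated on this scale.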

Other observations

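Small lists outside the comparisons above were divided or one-sided at low level. Of 8 GIMAP GTPases, which support lymphocyte survival, 1 rose and 0 fell (12.5% higher, against 15.9% of all genes). These counts were 2 higher and 0 lower without TDLN 3, 2 higher and 1 lower without tumor 3 and 3 higher and 0 lower without both libraries with Xist. Of 18 secreted S100, annexin and galectin genes 2 rose and 5 fell (11.1% and 27.8%, against 15.9% and 10.9% of all genes). These counts were 4 higher and 3 lower without tumor 3, 2 higher and 2 lower without TDLN 1 and 1 higher and 2 lower without TDLN 4 or tumor 4. They were 1 higher and 5 lower without TDLN 3, 1 higher and 4 lower without tumor 1 and 4 higher and 5 lower without both libraries with Xist. NK-cell markers summed to 0.0319% to 0.0430% of values in tumor and 0.0224% to 0.0738% in TDLN, with overlap between tissues. Markers of CD4 and regulatory T cells summed to 0.00768% to 0.0324% in tumor and 0.00241% to 0.00448% in TDLN. Of 5 tested 2 rose (40.0%, against 15.9% of all genes), and Cd4 itself was too low to be tested, so other members carry this sum. Markers of dendritic cells summed to 0.0275% to 0.0547% in tumor and 0.0174% to 0.0249% in TDLN.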
